A study of Saccharomyces cerevisiae with 36 samples.

Results

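The palatinose response of wild-type *Saccharomyces cerevisiae* 16 hours after mid-log (+16h) was taken from 6 of the 36 libraries of the series. The members were chosen by their labels alone, and were the 3 wild-type libraries in fructose-palatinose and the 3 wild-type libraries in fructose at +16h. Of 5697 genes counted, 5479 passed the filter on low counts and were tested. The strain was FY4, a prototrophic laboratory strain. The fructose-palatinose cultures received 0.1% fructose and 0.9% palatinose, and the fructose cultures received 0.1% fructose. Both grew in minimal (Delft) medium after a pre-culture in pyruvate. The same comparison at +10h, and at +16h in a *gal80Δ* strain made in FY4, is used only to show where the response of wild type at +16h differs. Each group had 3 biological replicates, labelled A, B and C.

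Palatinose is a disaccharide of glucose and fructose. It enters yeast through maltose-type transporters of the *MAL* family and is split by isomaltases of the *IMA* family, so that it feeds hexose into the cell. Cells that have used up a small amount of hexose turn to ethanol, acetate and other carbon sources, and express genes of respiration, fatty acid oxidation and stress resistance that a hexose supply holds down. The design text describes the *MAL* genes of wild type as strongly active at this time, and what else differed between the media is described here.

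The cultures themselves differed at harvest. The optical density (OD) was 2.8, 2.6 and 2.8 in fructose-palatinose, against 1.9, 1.85 and 2.1 in fructose. Every fructose-palatinose culture was denser than every fructose culture, and the difference of the means was 0.783 (two-sided exact permutation test, p = 0.1, the smallest value that 3 cultures against 3 allow). Medium and density move together in these cultures, and their parts in the results below cannot be told apart. RNA was taken from whole cultures, so that fewer cells expressing a gene and less of its RNA in each cell cannot be told apart either.

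Transcripts were counted at their 3′ end, and levels are given as CPM, the counts of a gene scaled to a library total of 1000000. The totals of the 6 libraries ranged from 7799335 to 11471339 counts. A count of 3, the floor used for detection, was worth 0.262 CPM in the deepest library and 0.385 CPM in the shallowest, and such a floor reflects counting error alone. *GAL80* was counted at 47.0, 63.7 and 67.7 CPM in fructose-palatinose and at 48.8, 61.0 and 55.3 CPM in fructose, against means of 15.5 and 12.95 CPM in the same media in *gal80Δ*. These values do not go against the label of the wild type, although the deleted gene was not at 0 in the mutant. Library C of the fructose group stood apart from A and B. The chi-square per gene was 46.3 between A and C and 52.1 between B and C, against 14.7 between A and B, and it was between 14.7 and 35.9 among the fructose-palatinose libraries. Results that rest on fructose library C are therefore given with and without it.

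With edgeR's quasi-likelihood test, an absolute log2 fold change above 0.5 and a Benjamini-Hochberg adjusted p-value below 0.05, 140 genes were called higher in fructose-palatinose (2.56% of the genes tested) and 199 were called lower (3.63%). A log2 value of 1 is a 2-fold change. Most of the changes were small. The median log2 fold change was 0.77 among genes called higher and -0.79 among genes called lower, and 46 and 61 of them changed at least 2-fold. The libraries of both media did not overlap for 136 of the genes called higher and 198 of those called lower, against 12.1% and 18.2% of all genes tested that did not overlap in these directions.

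Only 6 of the 140 genes belong to the *MAL* and *IMA* families or their activators, which left 134. These 6 were *IMA1* (log2 fold change 8.56), *IMA5* (7.33), *MAL12* (4.61), *MAL11* (2.20), *ZNF1* (1.04) and *MAL32* (0.99). The ends of *MAL12* and *MAL32* are 98.7% identical over the last 300 bases of the counted interval of *MAL12*, so that counts may be split between them and both values are uncertain. Of the 339 called genes, 147 belonged to at least 1 of 61 functional lists. A rule chose 74 genes to describe. The others, *STE2*, *STE6*, *MF(ALPHA)1*, *FUS2*, *FAR1*, *HXT4*, *HXT5*, *CRC1*, *YAT1*, *CAT2*, *ALD4*, *BAP2*, *AGP1*, *SIP18*, the genes of the pentose phosphate pathway and those said below to be so, were picked once their values were known.

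The number of calls depended on single libraries. Without fructose library C, 106 of the 140 and 119 of the 199 genes were still called. All 140 and all 199 kept their sign. This was nearly fixed in advance, since the media did not overlap for 136 and 198 of them. Fructose library C was the highest of the 6 libraries for 100 of the genes called lower. It was the lowest of the 6 for 46 of the genes called higher. Where the media did not overlap, some fructose library must hold this place. Counts for fructose libraries A and B are not given here, so the 100 and 46 alone do not show that calls rest on library C. The other omissions that moved a count by more than 1.5 times were those of fructose-palatinose library C (69 higher, 93 lower), fructose library A (79 higher, 121 lower) and fructose-palatinose library A (113 higher, 131 lower), and without fructose library C the fit called 127 higher and 127 lower. In all 6 fits with 1 library left out, 58 of the genes called higher and 76 of those called lower were called each time. Scaling by library size alone moved the split to 101 higher and 229 lower, since it shifts the median of all genes to -0.05 on the log2 scale.

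**Figure D1:**
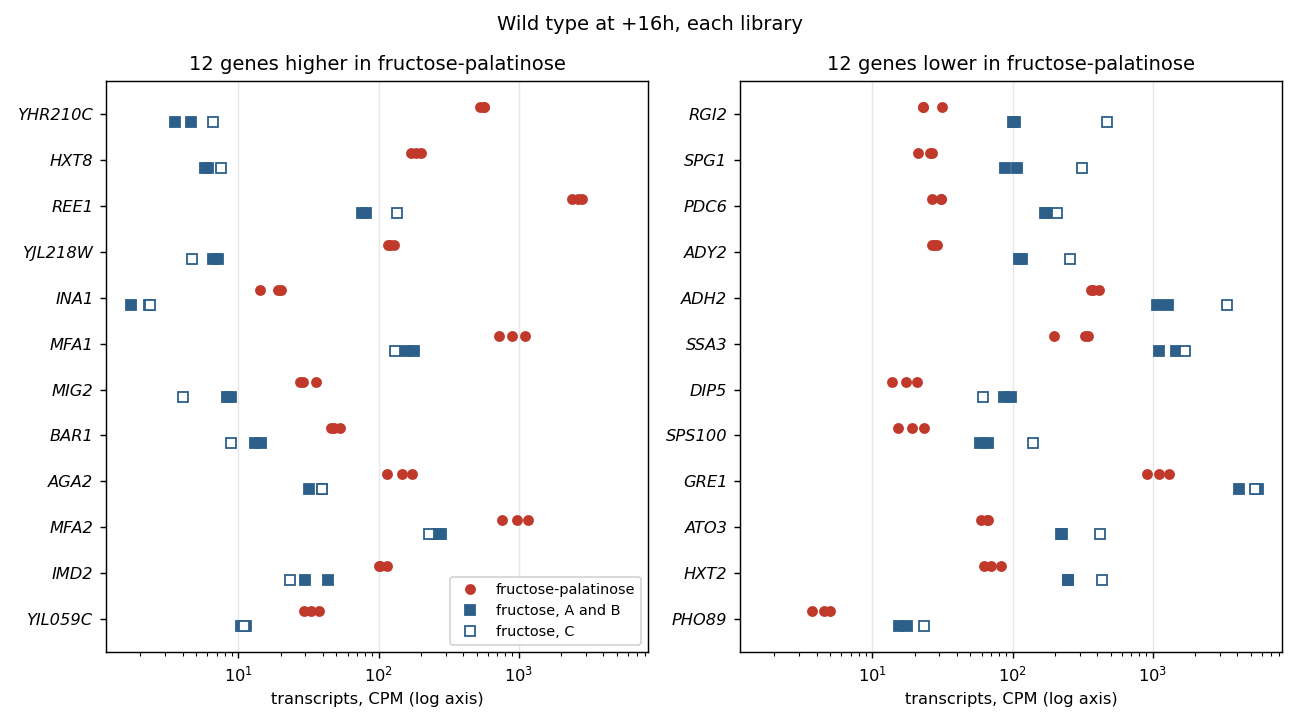
Levels in each of the 6 wild-type libraries at +16h, in CPM on a log axis, of 12 genes called higher (left) and 12 called lower (right). They have the largest fold changes outside the *MAL* and *IMA* families among called genes with a mean of at least 10 CPM and no overlap between media. Circles are fructose-palatinose libraries and squares fructose libraries, with library C open. By this choice circles and squares overlap in no row. The open square lies apart for *RGI2* (473 CPM, against 105 and 100 CPM in fructose libraries A and B) and *ADH2* (3362 CPM, against 1076 and 1277 CPM).

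Outside the *MAL* and *IMA* families, the 4 largest rises were those of *YHR210C*, *HXT8*, *REE1* and *YJL218W*. *YHR210C*, a putative aldose 1-epimerase by its resemblance to the epimerase part of *GAL10*, had 568, 525 and 563 CPM in fructose-palatinose, against 3.54, 4.62 and 6.57 CPM in fructose (log2 fold change 6.85 ± 0.23, SE, edgeR's adjusted p = 2.16e-20). *HXT8*, a member of the hexose transporter family, had 185, 199 and 170 CPM in fructose-palatinose, against 6.10, 5.77 and 7.52 CPM in fructose (4.87 ± 0.19, adjusted p = 1.9e-18). Each fructose-palatinose library exceeded each fructose library of these genes by far more than the libraries of 1 medium differed. *REE1*, a gene linked to the control of enolase, was the most abundant of them, at 2843, 2379 and 2622 CPM in fructose-palatinose and 76.4, 80.8 and 135 CPM in fructose (4.79 ± 0.27). *YJL218W*, which resembles bacterial acetyltransferases, had 129, 117 and 120 CPM in fructose-palatinose and 6.58, 7.18 and 4.66 CPM in fructose (4.37 ± 0.19).

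Of these, *YJL218W*, *REE1* and *HXT8* are neighbours of *IMA5* near an end of chromosome X. In the R64 build, the counted intervals run in the order *YJL218W* (bases 21866 to 22711), *REE1* (23032 to 23911), *IMA5* (24216 to 26111) and *HXT8* (26862 to 29721). All 4 were called higher, and the genes on either side were not. On one side, *HXT9*, another hexose transporter gene, averaged 1.45 CPM in fructose-palatinose and 1.177 CPM in fructose, and *IMA4*, an isomaltase gene, averaged 1.31 and 1.46 CPM. Near-identical ends were searched only for called genes, so that sharing of reads with copies was not tested for *HXT9* and *IMA4*. On the other side, *YJL213W* averaged 4.94 and 2.70 CPM (adjusted p = 0.0657). *YJL215C*, which overlaps *HXT8* on the opposite strand, averaged 0.617 and 2.15 CPM and was not called. *YHR210C* lies on chromosome VIII, and its interval overlaps that of *CRG1* on the opposite strand by 422 bases. *CRG1* had 29.9, 29.3 and 29.2 CPM in fructose-palatinose and 35.4, 36.0 and 35.5 CPM in fructose, a log2 fold change of -0.23 that was not called. Whether the counting used strand is not given in the sources used here, although the kit keeps it.

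The genes that mark the a mating type were together higher in fructose-palatinose than in fructose. Haploid cells of the a type secrete a-factor, carry the receptor for α-factor and express a small set of a-specific genes, and the pheromone signal raises a further set of genes for adhesion and cell fusion. All 7 a-specific genes tested were called higher, against 2.56% of all genes tested. Their median log2 fold change was 1.96, against -0.005 over all genes tested. *MFA1*, 1 of the 2 genes for a-factor, had 892, 725 and 1113 CPM in fructose-palatinose, against 157, 180 and 131 CPM in fructose (log2 fold change 2.60 ± 0.32, edgeR's adjusted p = 7.46e-07). *MFA2*, the other, had 973, 754 and 1155 CPM in fructose-palatinose and 263, 278 and 227 CPM in fructose (1.96 ± 0.19). Even the lowest fructose-palatinose library of each had more than 2 times the level of the highest fructose library.

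*STE2*, the receptor for α-factor, had 197, 193 and 220 CPM in fructose-palatinose, against 74.4, 76.7 and 65.9 CPM in fructose (1.54 ± 0.12, adjusted p = 1.84e-10). *BAR1*, the protease that degrades α-factor, had 53.1, 45.6 and 48.2 CPM in fructose-palatinose and 13.2, 14.5 and 8.79 CPM in fructose (2.07 ± 0.15, adjusted p = 6.82e-12). *AGA2*, the binding subunit of a-agglutinin, had 147, 114 and 174 CPM in fructose-palatinose and 31.7, 39.8 and 39.2 CPM in fructose (2.03 ± 0.19). For these 3 genes too the libraries of the media lay far apart. *ASG7* changed by 1.09, and *STE6*, the exporter of a-factor, by 0.84 (adjusted p = 0.0475), a call that was lost whichever of the 6 libraries was left out. The summed level of the 7 genes was 2322, 1881 and 2765 CPM in fructose-palatinose and 567, 620 and 500 CPM in fructose. The 4 α-specific genes, which mark the opposite mating type, summed to 45.2, 44.1 and 53.0 CPM in fructose-palatinose and 41.2, 48.6 and 44.7 CPM in fructose. One of them, *MF(ALPHA)1*, a gene for α-factor, was called higher (10.3, 10.6 and 17.7 CPM in fructose-palatinose and 6.83, 6.03 and 5.83 CPM in fructose, adjusted p = 0.0456), and 5 of the 6 omissions ended this call.

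Of 12 genes of the pheromone response, 6 were called higher and none lower, and the median of the list was 0.72. *FUS1*, which acts in the fusion of mating cells, had 41.1, 38.8 and 44.1 CPM in fructose-palatinose, against 12.2, 16.3 and 15.2 CPM in fructose (1.56 ± 0.14, adjusted p = 1.29e-09). *AGA1*, the anchor subunit of a-agglutinin, had 80.6, 111 and 112 CPM in fructose-palatinose and 40.1, 38.1 and 32 CPM in fructose (1.51 ± 0.17). The media did not overlap for either gene. The other 4 were *KAR4*, a transcription factor of mating (1.03), *SST2*, which damps the signal at the G protein (1.03), *FUS2* (0.78, called in 3 of the 6 fits with a library left out) and *FAR1*, which holds the cell cycle for mating (0.66). *PRM4*, the most abundant member, had 101, 83.7 and 127 CPM in fructose-palatinose and 107, 152 and 126 CPM in fructose and was not called.

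Because these genes moved together, their promoters were read, each from 250 bases before to 50 bases after the first base of the start codon, from the RefSeq annotation of R64. The motif TGAAAC, the core of the pheromone response element, was searched on both strands, and was chosen after the genes' values were seen. It stood in 7 of the 7 promoters of a-specific genes and in 10 of the 12 of the pheromone response, against 18.8% of the 5371 promoters of genes tested. Among all genes called higher it stood in 34.1% of 138 promoters, and among those called lower in 11.6% of 198. The promoters of 4 of these genes, picked as examples, are printed 5′ to 3′ on the strand of the gene. TGAAAC, or its complement read backwards, is in capitals. They lie at chrIV:1384926-1385225 (plus strand, *MFA1*), chrIX:322092-322391 (plus strand, *BAR1*), chrVI:82330-82629 (plus strand, *STE2*) and chrIII:71553-71852 (plus strand, *FUS1*).
MFA1: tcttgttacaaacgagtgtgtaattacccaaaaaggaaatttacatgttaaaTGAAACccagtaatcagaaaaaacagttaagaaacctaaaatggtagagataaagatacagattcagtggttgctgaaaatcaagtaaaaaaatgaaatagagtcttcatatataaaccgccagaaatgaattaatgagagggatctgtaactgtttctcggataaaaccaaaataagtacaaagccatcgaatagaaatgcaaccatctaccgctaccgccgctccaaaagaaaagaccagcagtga
BAR1: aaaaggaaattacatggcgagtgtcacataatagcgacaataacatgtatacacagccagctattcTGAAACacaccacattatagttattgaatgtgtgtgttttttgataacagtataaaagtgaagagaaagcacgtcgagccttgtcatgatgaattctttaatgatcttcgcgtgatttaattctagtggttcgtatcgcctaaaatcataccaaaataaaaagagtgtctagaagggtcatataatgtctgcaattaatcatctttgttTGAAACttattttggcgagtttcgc
STE2: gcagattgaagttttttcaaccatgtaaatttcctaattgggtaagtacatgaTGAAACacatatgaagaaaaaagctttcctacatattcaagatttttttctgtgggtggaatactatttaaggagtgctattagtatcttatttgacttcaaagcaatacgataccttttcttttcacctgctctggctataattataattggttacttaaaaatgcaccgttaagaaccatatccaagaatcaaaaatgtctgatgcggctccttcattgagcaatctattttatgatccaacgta
FUS1: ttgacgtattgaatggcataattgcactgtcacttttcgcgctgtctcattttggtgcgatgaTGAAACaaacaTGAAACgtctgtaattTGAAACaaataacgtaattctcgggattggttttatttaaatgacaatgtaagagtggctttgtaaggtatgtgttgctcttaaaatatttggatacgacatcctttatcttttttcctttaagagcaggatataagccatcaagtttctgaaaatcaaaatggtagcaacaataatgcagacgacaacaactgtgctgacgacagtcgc
The match lies 198 bases before the start in *MFA1*, 197 in *STE2* and 184 in *BAR1*, whose other match lies inside the coding sequence. *FUS1* holds 3 matches, at 187, 176 and 160 bases before the start. A match is a description of the letters, not a site of binding.

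**Figure D2:**
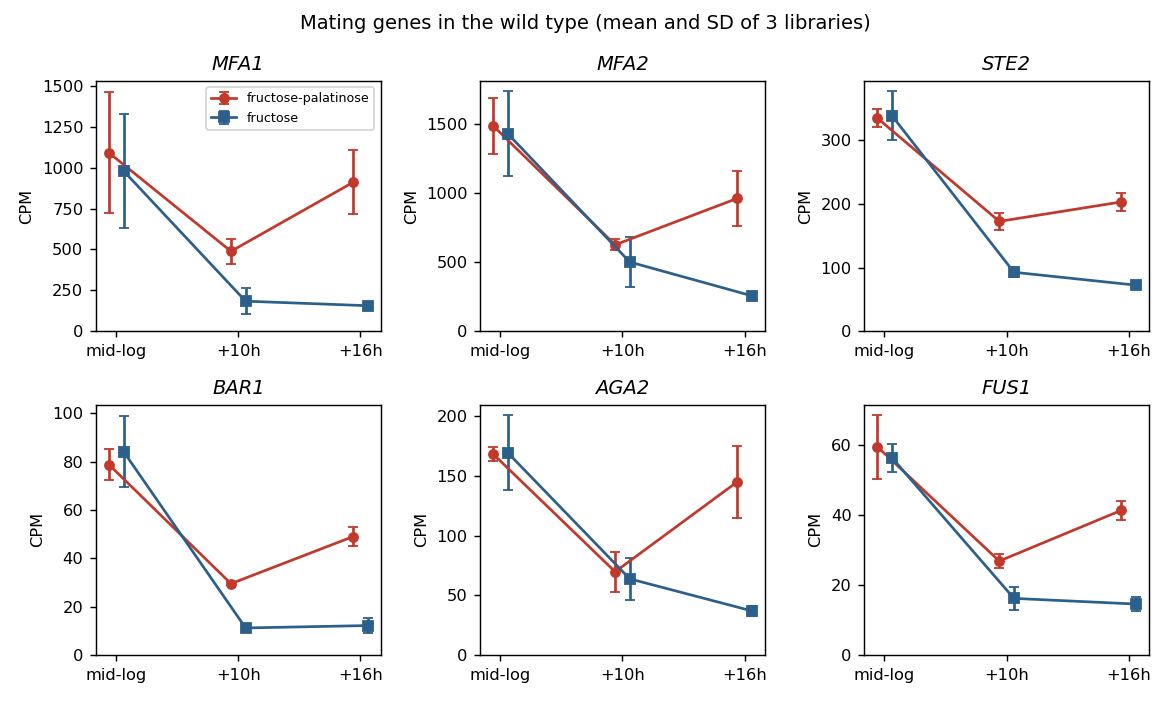
Mean level (CPM, linear axes from 0) with SD of 3 wild-type libraries at mid-log, +10h and +16h, for 6 mating genes, in fructose-palatinose (red circles) and fructose (blue squares). The media lie together at mid-log, and at +16h *MFA1* averaged 910 CPM in fructose-palatinose and 156 CPM in fructose, and *STE2* 203 and 72.3 CPM.

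The media separated after mid-log. *MFA1* averaged 1091 ± 370 CPM in fructose-palatinose and 980 ± 347 CPM in fructose at mid-log, 489 ± 76.7 and 184 ± 79.8 CPM at +10h, and 910 ± 195 and 156 ± 24.8 CPM at +16h (SD, n = 3). *MFA2* averaged 1487 ± 204 and 1430 ± 305 CPM in these media at mid-log, 625 ± 39.7 and 501 ± 184 CPM at +10h, and 961 ± 201 and 256 ± 25.9 CPM at +16h. *STE2* averaged 335 ± 14 and 339 ± 38.6 CPM at mid-log, 173 ± 13.9 and 92.6 ± 8.02 CPM at +10h, and 203 ± 14.6 and 72.3 ± 5.67 CPM at +16h. In each of these genes, the fructose mean was lower at each later time, and the fructose-palatinose mean at +16h lay between those at +10h and mid-log. In *gal80Δ* at +16h, *MFA1* averaged 122 ± 12.9 CPM in fructose-palatinose and 129 ± 22.2 CPM in fructose. The median of the a-specific list was 0.47 in wild type at +10h and -0.07 in *gal80Δ* at +16h.

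Further genes that were much higher in fructose-palatinose than in fructose were not mating genes. *INA1* had 14.4, 20.2 and 19.2 CPM in fructose-palatinose, against 1.71, 2.31 and 2.33 CPM in fructose (3.12 ± 0.31, edgeR's adjusted p = 1.8e-08). *MIG2*, a repressor that acts on glucose-repressed genes, had 35.5, 27.5 and 28.8 CPM in fructose-palatinose and 8.90, 8.33 and 4.03 CPM in fructose (2.17 ± 0.37, adjusted p = 0.000186). *IMD2*, an inosine monophosphate dehydrogenase of GTP synthesis, had 116, 102 and 101 CPM in fructose-palatinose and 43.3, 29.8 and 23.3 CPM in fructose (1.77 ± 0.25). The counts of *IMD2* may include reads of its close copies, with stretches up to 95.5% identical. The rule that chose *INA1*, *MIG2* and *IMD2* required that the media did not overlap. *YIL059C*, a dubious reading frame, had 37.6, 29.4 and 33.2 CPM in fructose-palatinose and 10.5, 11.3 and 10.9 CPM in fructose (1.66 ± 0.41, adjusted p = 0.0103). Without fructose library A its adjusted p was 0.0507, and its interval overlaps that of *YIL060W* on the opposite strand by 585 bases. From mid-log to +16h, mean *INA1* went from 79.2 to 17.9 CPM in fructose-palatinose and from 86.0 to 2.12 CPM in fructose. *MIG2* went from 44.6 to 30.6 and from 29.5 to 7.09 CPM in these media, and *IMD2* from 224 to 106 and from 183 to 32.1 CPM. *YIL059C* went up in both, from 5.82 to 33.4 and from 4.06 to 10.9 CPM.

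The hexose transporters moved in both directions. Of 11 tested, *HXT8*, *HXT13* and *HXT4* were called higher (27.3%, against 2.56% of all genes tested). *HXT2* and *HXT5* were called lower (18.2%, against 3.63%). *HXT4* had 67.2, 69.1 and 85.3 CPM in fructose-palatinose, against 37.6, 43.2 and 14.7 CPM in fructose (log2 fold change 1.28). *HXT2*, a transporter of high affinity, had 63.0, 82.9 and 70.2 CPM in fructose-palatinose and 248, 247 and 431 CPM in fructose (-2.05 ± 0.18), and *HXT5* had 217, 204 and 222 CPM in fructose-palatinose and 443, 451 and 418 CPM in fructose (-0.98). The media did not overlap for any of the 3. *HXT13* had 10.9, 7.81 and 8.37 CPM in fructose-palatinose and 1.34, 1.54 and 0.848 CPM in fructose (2.91 ± 0.47, adjusted p = 7.59e-05), and its last 299 bases are 97.0% identical to *HXT17*, so that this value is uncertain.

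Within the pentose phosphate pathway, which yields NADPH and sugars for nucleotides, a pair of paralogues moved apart. *GND1*, the main phosphogluconate dehydrogenase, had 398, 329 and 439 CPM in fructose-palatinose, against 142, 169 and 89.95 CPM in fructose (1.60 ± 0.32, adjusted p = 0.00114). *GND2*, its minor paralogue, had 188, 164 and 168 CPM in fructose-palatinose and 371, 409 and 299.1 CPM in fructose (-1.001 ± 0.25, adjusted p = 0.0112). The paralogues thus moved in opposite directions, with no overlap between media in either. Of 11 genes, *SOL3* (0.81) was also called higher, and *TKL2* (-0.97) and *NQM1* (-0.79) were also called lower. The calls are 18.2% of the list higher and 27.3% lower, against 2.56% and 3.63% of all genes tested. The 3 lower calls fell to 0 without fructose-palatinose library C (edgeR, where 3 were lower at an unadjusted p below 0.05) and to 1 without fructose library A. *ZWF1*, which starts the pathway, changed by 0.23 and was not called.

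**Figure D3:**
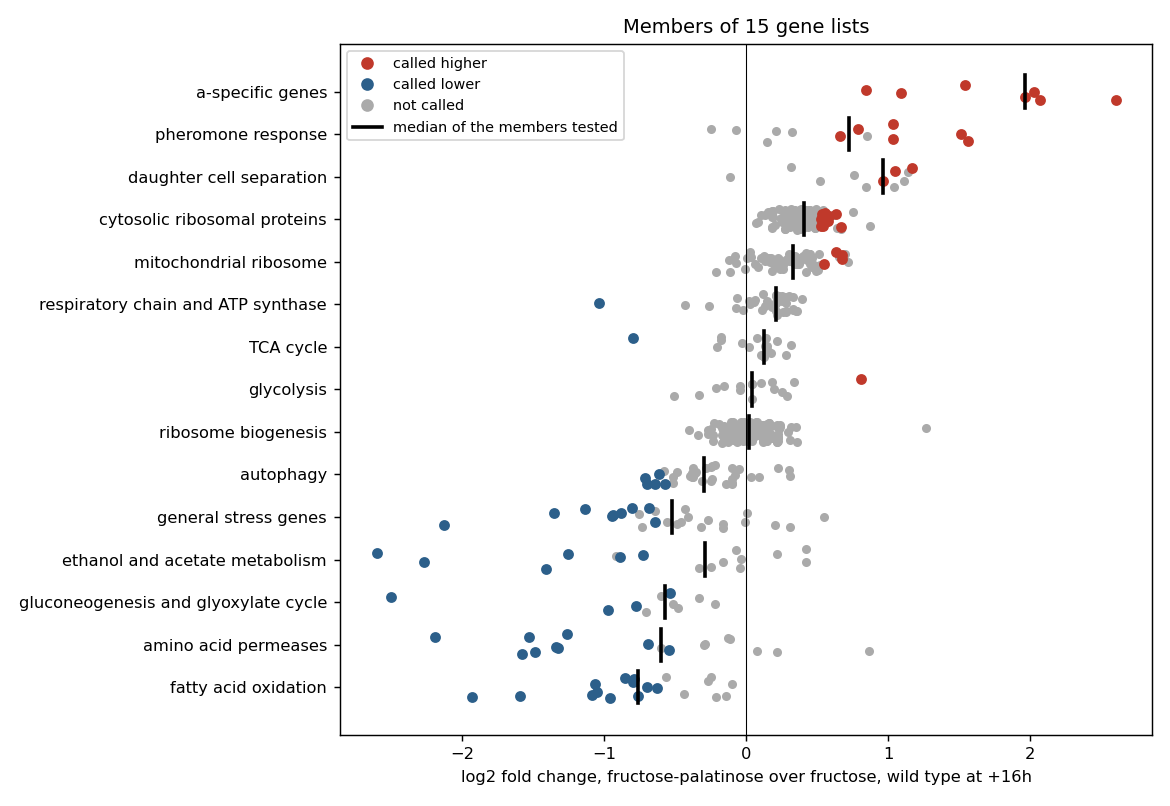
Log2 fold change (fructose-palatinose over fructose, wild type at +16h) of each tested member of 15 gene lists, with the median of each list as a black bar. Red members were called higher, blue lower and grey neither. The medians run from 1.96 for the a-specific genes to -0.76 for fatty acid oxidation.

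Of the 61 lists, that of fatty acid oxidation held the most genes called lower. Yeast breaks down fatty acids in the peroxisome and passes the acetyl units to the mitochondrion on carnitine. Of 19 genes of this list, 12 were called lower (63.2%, against 3.63% of all genes tested). None was above 0, against 49.3% of all genes tested, and the median was -0.76. *CTA1*, the peroxisomal catalase, had 31.3, 43.8 and 26.7 CPM in fructose-palatinose, against 108, 110 and 182 CPM in fructose (-1.93 ± 0.23, adjusted p = 5.64e-07). *POT1*, the thiolase of the last step, had 52.4, 63.7 and 44.5 CPM in fructose-palatinose and 158, 133 and 208 CPM in fructose (-1.59 ± 0.28). *PXA1*, a subunit of the peroxisomal fatty acid importer, had 48.7, 45.6 and 35.8 CPM in fructose-palatinose and 91.9, 93.0 and 99.5 CPM in fructose (-1.08 ± 0.16). For these 3, the highest fructose-palatinose library lay below the lowest fructose library by a wide margin.

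*POX1*, the acyl-CoA oxidase of the first step, had 13.4, 8.86 and 12.99 CPM in fructose-palatinose and 17.6, 22.2 and 36.3 CPM in fructose (-1.06 ± 0.26). It was not called without fructose library C (-0.69, adjusted p = 0.125) or without fructose-palatinose library B (-0.89, adjusted p = 0.0513). *YAT2*, a carnitine acetyltransferase and the most abundant member, had 1461, 1551 and 1155 CPM in fructose-palatinose and 2609, 2269 and 2599 CPM in fructose (-0.80 ± 0.16, adjusted p = 0.00156). The other carnitine genes *CRC1* (-0.85), *YAT1* (-0.79) and *CAT2* (-0.70) were lower by similar amounts. The number of members called was 9 without fructose library C and between 10 and 11 without any other library. At +10h 5 members were called lower in wild type (median -0.37), against 6.19% of all genes tested. The median of the list was 0.02 in *gal80Δ* at +16h.

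The oleate response element, to which the factors of fatty acid oxidation bind, has the core CGGNNNTNA. Searched on both strands, and chosen after the genes' values were seen, it stood in 15 of the 19 promoters of the list, against 23.1% of all promoters of genes tested, 27.8% of those of genes called lower and 25.4% of those of genes called higher. The promoters of *CTA1* and *POT1* are printed since both hold a facing pair of matches, in capitals. They lie at chrIV:969631-969930 (minus strand, *CTA1*) and chrIX:41395-41694 (minus strand, *POT1*).
CTA1: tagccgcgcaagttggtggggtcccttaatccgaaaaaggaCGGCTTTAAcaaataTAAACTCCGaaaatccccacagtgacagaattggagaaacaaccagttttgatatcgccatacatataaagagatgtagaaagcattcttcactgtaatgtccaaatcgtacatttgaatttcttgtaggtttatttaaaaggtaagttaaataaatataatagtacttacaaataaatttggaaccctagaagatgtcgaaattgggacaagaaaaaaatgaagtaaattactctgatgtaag
POT1: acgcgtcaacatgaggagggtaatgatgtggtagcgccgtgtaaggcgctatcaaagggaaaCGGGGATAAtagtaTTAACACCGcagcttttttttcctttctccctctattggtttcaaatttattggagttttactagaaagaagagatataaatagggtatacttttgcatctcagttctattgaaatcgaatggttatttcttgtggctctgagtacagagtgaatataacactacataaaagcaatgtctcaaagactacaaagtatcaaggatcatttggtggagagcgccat
The pair begins 209 and 194 bases before the start in *CTA1* and 188 and 174 bases before it in *POT1*, with the first match on the strand of the gene and the next on the other strand. The CGG of this core is also part of the direct repeat CGG-N9-CGG, searched because zinc cluster factors such as the *MAL* activators bind repeats of this kind, so that both searches can find the same letters. That repeat stood in 6.52% of the promoters of genes called higher, 1.01% of those of genes called lower and 2.03% of all. *IMA5* held 1, and the windows of *YHR210C*, *REE1*, *HXT8* and *YJL218W* held none.

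Of 16 genes of ethanol and acetate metabolism, 6 were called lower (37.5%, against 3.63% of all genes tested) and none higher. The median was -0.29. *PDC6*, a minor pyruvate decarboxylase, had 26.4, 30.7 and 30.7 CPM in fructose-palatinose, against 174, 171 and 207 CPM in fructose (-2.60 ± 0.17, edgeR's adjusted p = 7.88e-13). *ADH2*, the alcohol dehydrogenase that oxidises ethanol, had 365, 373 and 415 CPM in fructose-palatinose and 1076, 1277 and 3362 CPM in fructose (-2.27 ± 0.26, adjusted p = 3.76e-07). The media were far apart in both, and *ADH2* was more than 2-fold higher in fructose library C than in A and B. Without that library the log2 fold change of *ADH2* was -1.56, and it was still called.

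*ALD3*, an acetaldehyde dehydrogenase, had 354, 459 and 316 CPM in fructose-palatinose and 1254, 1086 and 766 CPM in fructose (-1.41). *ACS1*, the acetyl-CoA synthetase used without glucose, had 266, 282 and 256 CPM in fructose-palatinose and 648, 571 and 759 CPM in fructose (-1.25). Neither overlapped between media. *ALD4* (-0.89), the mitochondrial aldehyde dehydrogenase, changed by -0.35 without fructose library C and was called in 2 of the 6 fits with a library left out, and 4 members of the list were called without that library. *PDC1*, the main pyruvate decarboxylase and the most abundant member, had 5527, 6067 and 6833 CPM in fructose-palatinose and 5749, 5903 and 4776 CPM in fructose and was not called.

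Gluconeogenesis and the glyoxylate cycle rebuild sugar from such substrates. Of 10 genes listed under them, 4 were called lower (40.0%, against 3.63% of all genes tested). None was above 0, against 49.3% of all genes tested, and the median was -0.57. Not every listed gene is an enzyme of these pathways. *ADY2*, an acetate transporter, had 26.8, 27.5 and 28.9 CPM in fructose-palatinose, against 116, 111 and 258 CPM in fructose (-2.50 ± 0.32, and -1.98 without fructose library C). *MDH2*, the cytosolic malate dehydrogenase, had 1524, 1718 and 1431 CPM in fructose-palatinose and 3841, 3624 and 2016 CPM in fructose (-0.97). Both were called with any library left out. *CIT2* (-0.77), a peroxisomal citrate synthase, was called in 1 of the 6 fits with a library left out and *REG2* (-0.54) in 0, with adjusted p between 0.062 and 0.161. The list then held 2 calls without fructose-palatinose library A or C or fructose library A or C, and 3 calls without either library B. *ICL1*, isocitrate lyase and the most abundant member, had 5912, 7025 and 5604 CPM in fructose-palatinose and 9798, 8260 and 6062 CPM in fructose (-0.33) and was not called. At +10h, 7 of the 10 were called lower (median -0.88), against 6.19% of all genes tested.

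Of 17 amino acid permeases, which take up nitrogen sources, 9 were called lower (52.9%, against 3.63% of all genes tested) and none higher. The median was -0.60. *DIP5*, the permease for glutamate and aspartate, had 17.3, 20.9 and 13.8 CPM in fructose-palatinose, against 86.9, 97.2 and 61.4 CPM in fructose (-2.19 ± 0.23, edgeR's adjusted p = 3.32e-08). *MUP1*, the methionine permease, had 30.9, 32.9 and 27.9 CPM in fructose-palatinose and 76.7, 72.8 and 115 CPM in fructose (-1.49). *GNP1*, the glutamine permease, had 7.29, 8.39 and 5.06 CPM in fructose-palatinose and 18.8, 20.6 and 24.1 CPM in fructose (-1.58). All of them were lower in each fructose-palatinose library than in each fructose library. *BAP3* (-1.53) and *BAP2* (-1.34), permeases for branched-chain amino acids, and *AGP1* (-1.26), one of broad range, were also called lower with any library left out. *GAP1*, the general permease and the most abundant, had 742, 702 and 872 CPM in fructose-palatinose and 839, 1182 and 612 CPM in fructose and was not called. Without fructose-palatinose library C or fructose library A, 6 of the permeases were called. At +10h 8 were called lower, against 6.19% of all genes tested, with a median of -0.81.

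Of 26 general stress genes, 9 were called lower (34.6%, against 3.63% of all genes tested) and none higher, with a median of -0.52. *GRE1*, a hydrophilin of osmotic stress, had 1304, 1110 and 914 CPM in fructose-palatinose, against 5603, 4086 and 5338 CPM in fructose (-2.13 ± 0.42, edgeR's adjusted p = 0.00132). *SIP18*, its paralogue, had 5165, 5363 and 4334 CPM in fructose-palatinose and 11790, 10610 and 7087 CPM in fructose (-0.94). The media did not overlap. *PHM7* (-1.36) and *MSC1* (-0.95) were called with any library left out, and *PAI3* (-1.14), the inhibitor of the vacuolar proteinase A, in 4 of the 6 fits. *HSP12*, a membrane-bound stress protein, had 10510, 9205 and 7997 CPM in fructose-palatinose and 14160, 14270 and 11670 CPM in fructose, with a log2 fold change of -0.48 that was not called. The number called was 4 without fructose-palatinose library C, 5 without fructose library A and 7 without any other.

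AGGGG, the stress response element (STRE) of the stress factors Msn2 and Msn4, was searched on both strands and stood in 38.9% of the promoters of genes called lower, 15.9% of those of genes called higher and 21.9% of all. Among the general stress genes it stood in 14 of 26. The promoters of *SPS100*, a spore wall gene, and *MSC1* are printed as examples with 2 matches each, in capitals. They lie at chrVIII:379150-379449 (minus strand, *SPS100*) and chrXIII:16627-16926 (minus strand, *MSC1*).
SPS100: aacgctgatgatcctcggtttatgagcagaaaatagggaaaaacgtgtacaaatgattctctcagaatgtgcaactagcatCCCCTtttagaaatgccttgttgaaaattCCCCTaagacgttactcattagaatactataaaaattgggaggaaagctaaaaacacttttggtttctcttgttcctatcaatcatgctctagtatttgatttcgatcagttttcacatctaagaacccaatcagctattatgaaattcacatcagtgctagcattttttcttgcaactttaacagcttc
MSC1: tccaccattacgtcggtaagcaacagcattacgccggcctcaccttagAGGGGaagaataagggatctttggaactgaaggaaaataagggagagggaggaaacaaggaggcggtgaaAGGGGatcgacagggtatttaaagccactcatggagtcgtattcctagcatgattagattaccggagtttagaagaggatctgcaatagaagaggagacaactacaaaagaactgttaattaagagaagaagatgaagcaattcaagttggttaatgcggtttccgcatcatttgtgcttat
Of the other motifs, the Gcn4 site TGACTC stood in 14.1% of the promoters of genes called lower, 5.07% of those of genes called higher and 8.30% of all, and CCAAT in 47.5%, 44.2% and 44.0% of them. The shares are descriptions and were not tested.

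**Figure D4:**
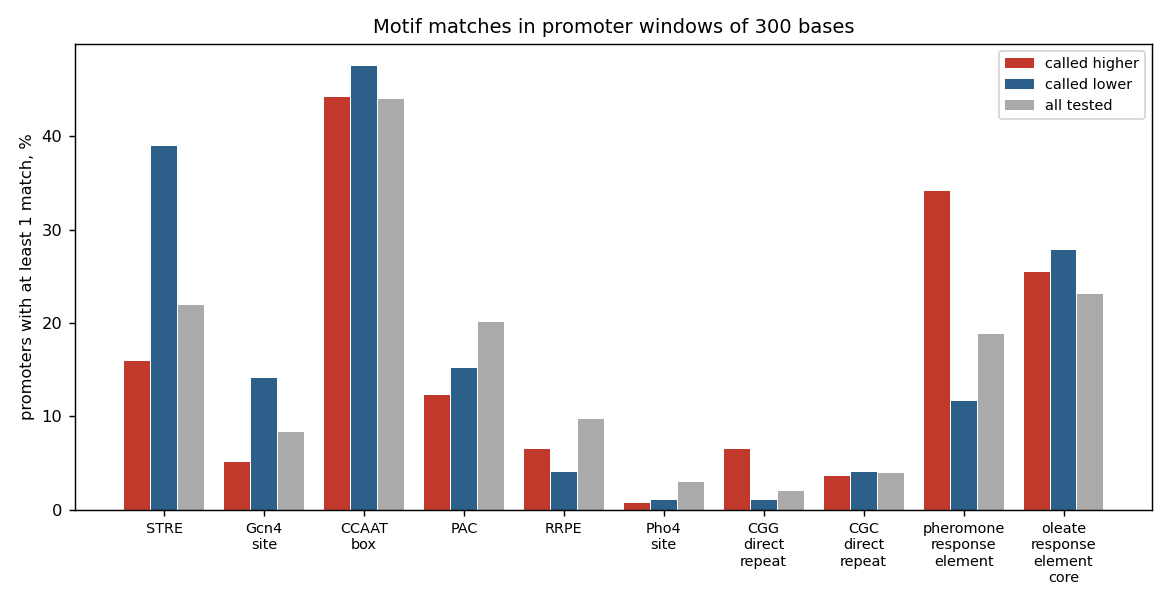
Share of promoter windows (250 bases before to 50 after the start, in percent, axis from 0) that hold at least 1 match of each of 10 motifs on either strand, for genes called higher (red, 138 promoters), called lower (blue, 198) and all tested (grey, 5371). The STRE is more frequent in genes called lower (38.9%) and the pheromone response element in genes called higher (34.1%) than among all (21.9% and 18.8%).

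With all libraries, *RGI2* and *SPG1* had the most negative log2 fold changes among called genes of at least 10 CPM. Without fructose library C, *PDC6* (-2.50), *DIP5* (-2.36), *SSA3* (-2.09), *GRE1* (-2.07) and *ADY2* (-1.98) came before them. *RGI2*, a gene of respiratory growth, had 23.1, 31.5 and 23.01 CPM in fructose-palatinose, against 105, 100 and 473 CPM in fructose (-3.09 ± 0.38, and -1.93 without fructose library C). *SPG1*, named for survival in stationary phase, had 26.7, 25.8 and 21.01 CPM in fructose-palatinose and 108, 87.7 and 314 CPM in fructose (-2.76 ± 0.37, and -1.94 without that library). *SPS100* had 19.3, 23.2 and 15.2 CPM in fructose-palatinose and 58.9, 66.9 and 140 CPM in fructose (-2.17 ± 0.32, and -1.66 without it). In these 3 genes the fructose libraries A and B lay close together and C was far above them. All fructose libraries lay above all fructose-palatinose libraries, which the rule that chose these genes required. *ATO3*, a putative ammonium exporter, had 65.8, 67.0 and 59.9 CPM in fructose-palatinose and 224, 223 and 419 CPM in fructose (-2.12 ± 0.27, and -1.74 without it). *SSA3*, a stress-induced Hsp70 chaperone, had 330, 345 and 198 CPM in fructose-palatinose and 1453, 1109 and 1701 CPM in fructose (-2.24 ± 0.34), although its interval shares 552 bases with that of *AAR2* on the same strand. *PHO89*, a sodium-phosphate cotransporter, had 4.54, 3.73 and 4.97 CPM in fructose-palatinose and 15.4, 17.6 and 23.3 CPM in fructose (-2.03 ± 0.38). All 12 genes called lower in the plot of levels by library were called with any library left out.

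The 137 cytosolic ribosomal protein genes were all above 0, against 49.3% of all genes tested. The median log2 fold change was 0.41, and 11 of them (8.03%, against 2.56% of all genes tested) were called higher. Their summed level was 191800, 186000 and 205800 CPM in fructose-palatinose, against 146900, 149000 and 175900 CPM in fructose, and 96 of the 137 (70.1%, against 12.1% of all genes tested) were higher with no overlap between media. The count of calls rested on single libraries. It was 23 without fructose-palatinose library B, 2 without fructose library A, 6 without fructose library B, and 0 without fructose-palatinose library C, where 37 had an unadjusted p below 0.05 with edgeR. It was 13 with DESeq2 and 6 with library size alone. The mitochondrial ribosome, with 4 of 65 called higher, or 6.15% (12 without fructose-palatinose library B, 1 without fructose-palatinose library C or fructose library C), had a median of 0.33.

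Ribosome biogenesis had 0 of 120 genes called with edgeR (2 higher at an unadjusted p below 0.05) and 0 with DESeq2, and a median of 0.02. Of 39 genes of the respiratory chain and ATP synthase, *NDE2*, an external NADH dehydrogenase, was called lower (-1.04), which is 2.56% of the list against 3.63% of all genes tested, and the median was 0.21. Of 17 genes of the TCA cycle, *CIT3*, a mitochondrial citrate synthase, was called lower (-0.80), though not without fructose library C. This 1 call is 5.88% of the list, against 3.63% of all genes tested. Of 16 glycolytic genes, *PFK27*, which makes the activator of phosphofructokinase, was called higher (0.81), in 3 of the 6 fits with a library left out. This 1 call is 6.25% of the list, against 2.56% of all genes tested that were called higher. The genes named in this paragraph, and those named next, were chosen after their values were seen.

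Some smaller groups gave a few calls each. Of 11 genes for the separation of daughter cells, *SCW11* (1.17), *AMN1* (1.05) and *DSE1* (0.96) were called higher. This is 27.3% of the list, against 2.56% of all genes tested, and the median was 0.96. The number called was 5 without fructose library C, 3 without fructose-palatinose library B or C, and 2 without any other library. *SCW11*, a glucanase of the cell wall, had 116, 122 and 142 CPM in fructose-palatinose and 46.7, 49.2 and 78.6 CPM in fructose. At +10h 7 of the 11 were called higher, against 5.38% of all genes tested. Of 10 histone genes, *HTA2* (0.82) and *HTB2* (0.59, in 3 of the 6 fits with a library left out) were called higher, and at +10h 6 were. Of 26 genes of sulfur and methionine metabolism, 3 were called higher (11.5%, against 2.56% of all genes tested) and 4 lower (15.4%, against 3.63%). The median of this list was 0.07. *SAM2* (0.95), *SAM1* (0.77) and *MET6* (0.71, in 2 of the 6 fits with a library left out), which make methionine and S-adenosylmethionine, were called higher. The uptake genes *MUP1* (-1.49) and *SUL1* (-0.69) were among those called lower. *PDR10*, a multidrug transporter, averaged 109 ± 14.9 CPM in fructose-palatinose and 354 ± 60.6 CPM in fructose (SD, n = 3, log2 fold change -1.65 ± 0.15, edgeR's adjusted p = 2.12e-09), with no overlap.

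Among 20 transcription factors that act on carbon source genes, *MIG2* was called higher and *SIP4*, an activator of gluconeogenesis, was called lower (-0.69, adjusted p = 0.0367). Each call is 5.0% of the list, against 2.56% of all genes tested called higher and 3.63% called lower. *SIP4* had 32.2, 29.1 and 27.4 CPM in fructose-palatinose and 51.7, 53.7 and 42.4 CPM in fructose, and 5 of the 6 omissions ended its call. *ADR1*, an activator of ethanol and fatty acid use, had 16.1, 15.7 and 19.8 CPM in fructose-palatinose and 28.7, 34.5 and 35.1 CPM in fructose (-0.87, adjusted p = 0.0535), and DESeq2 called it. *CAT8*, an activator of gluconeogenesis, had 127, 154 and 112 CPM in fructose-palatinose and 195, 166 and 156 CPM in fructose (-0.35) and was not called. *HAP4*, the activator of respiration genes, changed by -0.09 and was not called, nor were the other 15. Among these 15, DESeq2 called *MIG3* lower (-0.97, adjusted p = 0.044), as did edgeR without fructose-palatinose library B (-1.19, adjusted p = 0.0496). With only the groups compared, edgeR called *NRG1* lower (-0.67, adjusted p = 0.0498).

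The response at +16h was set beside that of wild type at +10h, with which it shares no library. At +10h, 295 genes were called higher (5.38%) and 339 lower (6.19%). Of the 140 genes called higher at +16h, 49 were also called higher at +10h, which is 35% of the +16h genes and 16.6% of the +10h genes. Of the 199 called lower, 83 were also called lower at +10h, 41.7% and 24.5% of each list. The calls were opposite for *ARG4*, *ASG7* and *NRE1*, which were higher at +16h and lower at +10h, and for *RAD54*, which was lower at +16h and higher at +10h. The median log2 fold change at +10h of the genes called at +16h was 0.36 for those higher and -0.53 for those lower.

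A test of the difference between both effects called 51 genes with a higher effect at +16h (0.931%) and 26 with a lower one (0.475%), or 77 in all (1.41%). *MIG2* changed by 2.17 at +16h and 0.17 at +10h, *AGA2* by 2.03 and 0.25, and *MFA2* by 1.96 and 0.46, and each difference was called. *RGI2* changed by -3.09 at +16h and -1.05 at +10h, *PDC6* by -2.60 and -1.18, and *ADH2* by -2.27 and -0.67, and these differences were called as well. The first 4 genes of the response, *YHR210C*, *HXT8*, *REE1* and *YJL218W*, were already raised by 6.08, 4.61, 4.17 and 4.21 at +10h. *REG2* went the other way, with a log2 fold change of -0.54 at +16h and -1.48 at +10h. When only the 12 libraries of these groups were fitted, 0 genes passed in either direction with edgeR, where 423 had a higher and 472 a lower effect at an unadjusted p below 0.05. DESeq2, in a fit of all 36 libraries, called 79 and 80. Leaving out 1 of the 12 libraries gave between 10 calls (without the fructose-palatinose library B at +10h) and 136 (without the fructose library C at +10h) for the higher effects, and between 9 and 118 with the same omissions for the lower ones.

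**Figure D5:**
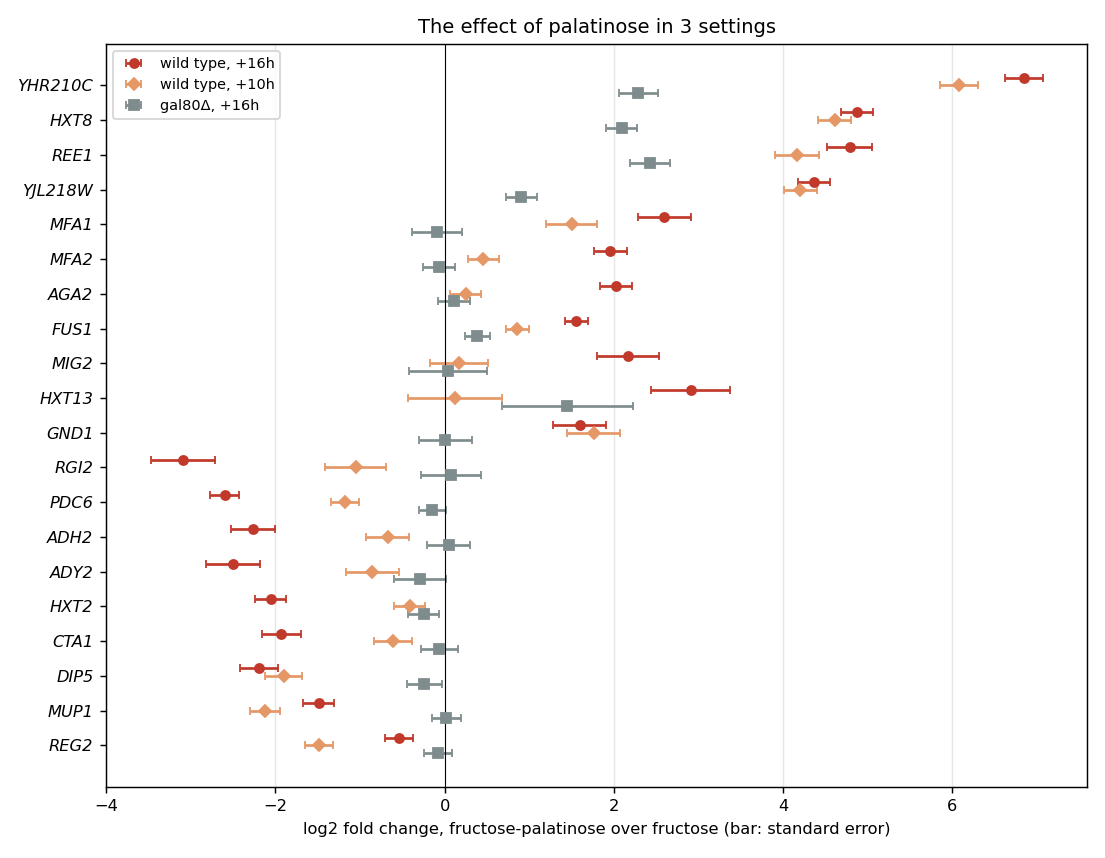
Log2 fold change (fructose-palatinose over fructose) with SE of 20 genes in wild type at +16h (circles), in wild type at +10h (diamonds) and in *gal80Δ* at +16h (squares). *MFA1* changed by 2.60 in wild type at +16h, by 1.503 at +10h and by -0.09 in *gal80Δ*, and *YHR210C* by 6.85, 6.08 and 2.29.

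In *gal80Δ* at +16h, 7 genes were called higher (0.128%) and 0 lower (0.0%) with edgeR, where 53 were lower at an unadjusted p below 0.05. All 7 were among the 140 of wild type (5.0% of them), namely *IMA1*, *IMA5*, *MAL12*, *HXT8*, *REE1*, *YHR210C* and *YJL218W*. The genes called in wild type had a median log2 fold change of 0.05 (higher) and -0.05 (lower) in *gal80Δ*. The difference between the strains was called higher in wild type for 43 genes (0.785%) and lower for 41 (0.748%). *YHR210C* changed by 6.85 in wild type and 2.29 in *gal80Δ*, and *YJL218W* by 4.37 and 0.91. *RGI2* changed by -3.09 in wild type and 0.08 in *gal80Δ*, *PDC6* by -2.60 and -0.15, and *ADH2* by -2.27 and 0.05. The density at harvest moved with these effects, at 2.73 ± 0.115 in fructose-palatinose and 1.95 ± 0.132 in fructose in wild type, against 1.98 ± 0.104 and 1.83 ± 0.0289 in *gal80Δ* (SD, n = 3), and its part in the difference was not tested.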

How the data were processed

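RNA-seq measured transcripts in 36 libraries of wild type and *gal80Δ*, of which 6 carry the comparison. The authors made libraries with a 3′-end kit, aligned the reads to R64 and deposited raw counts per gene and library, without normalization. Per the submitters' processing notes the tools were cutadapt 1.18, HISAT2 2.1.0, SAMtools 1.11, bedtools 2.30.0 and featureCounts of Subread 2.0.0, and MultiQC 1.13 and FastQC 0.11.9 for quality control. Reads mark 3′ ends, so that counts do not grow with gene length, and genes with near-identical ends can share reads. Harvest ODs, as measured, were deposited by the authors as well. A deposited CPM column (1 per-sample column) was left aside, and CPM were recomputed by scaling counts to a library total of 1000000. Library totals lay between 6020770 and 11785148 counts.

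The deposited counts entered edgeR 4.0.16 under R 4.3.3 (default filter over the 12 groups, TMM normalization, 1 quasi-likelihood fit of all 36 libraries with a coefficient for each group). Calls needed a log2 fold change beyond 0.5 in either direction and a Benjamini-Hochberg adjusted p-value below 0.05 over 5479 genes. These are the cutoffs of the study, which used DESeq2 and required them at every time point. Here each comparison was called by itself, which is a looser rule. The effects in wild type at +10h, in *gal80Δ* at +16h, and 2 differences of effects came from the same fit. TMM factors of the 6 libraries lay between 1.00 and 1.07. Alternatives were DESeq2 1.42.0, library size alone, no filter, at least 10 counts in every library compared, only the groups compared, a replicate block, other fold minimums and leaving out each library in turn. ODs were compared by a two-sided exact permutation test. The replicates are called biological by the labels, without saying whether each culture was sampled at every time.

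The comparison, the 61 lists and the motifs were chosen with earlier results of these data known, and the lists were written from general knowledge and may lack members. A rule chose 74 genes to name, and the other genes named were chosen once values were known or are neighbours or copies of these. It took the 12 genes with the largest fold change in each direction outside the *MAL* and *IMA* families, among those without overlap and with a mean of at least 10 CPM. It also took up to 4 called members in each direction and the most abundant gene of each list described at length, the 5 genes in each direction with the largest called differences between effects, and the carbon source factors. Promoters were read from the RefSeq genome and annotation of R64, matched by locus tag for 5551 genes, of which 5371 were tested. Counted intervals of 5551 genes contained the RefSeq gene on the same strand.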

Additional observations from a re-analysis of the deposited data

Results flagged for a closer look

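These results stood out because the effect of palatinose in wild type at +16h differed from that in another setting, by an edgeR test of the difference itself. The differences are on the log2 scale, with Benjamini-Hochberg adjustment over all genes tested.

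Against wild type at +10h, the effect at +16h was higher by 2.79 for *HXT13*, 2.0 for *MIG2*, 1.87 for *ASG7*, 1.78 for *AGA2* and 1.5 for *MFA2*. It differed by -2.04 for *RGI2*, -1.64 for *HXT2*, -1.59 for *ADH2*, -1.5 for *ATO3* and -1.42 for *PDC6*. All 10 differences missed the threshold when only the 12 libraries of these groups were fitted, with adjusted p between 0.0575 and 0.187. Of the 120 fits of these genes with 1 library left out, 36 lost the call, among them those without the +16h fructose library C for *RGI2* (-0.88, adjusted p = 0.201), *ADH2* (-0.88, adjusted p = 0.088), *ATO3* (-1.12, adjusted p = 0.137), *MIG2* (1.71, adjusted p = 0.128) and *HXT13* (2.57, adjusted p = 0.128).

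Against *gal80Δ* at +16h, the effect in wild type was higher by 4.56 for *YHR210C*, 4.18 for *IMA1*, 3.83 for *MAL12*, 3.57 for *IMA5* and 3.46 for *YJL218W*. It differed by -3.17 for *RGI2*, -2.53 for *SPG1*, -2.45 for *PDC6*, -2.31 for *ADH2* and -2.25 for *SPS100*. All 10 were called under each alternative run, including the 12 fits with 1 library left out.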

How the results depend on the processing

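None of the genes chosen by rule that were called changed direction under any alternative run. Where the media did not overlap, leaving out 1 library could hardly change the direction. Of the 51 called genes among the 74 chosen by rule, 45 were called in all 6 fits with 1 library left out. Of the genes chosen after their values were seen, *STE6*, *MF(ALPHA)1*, *FUS2*, *GND2*, *TKL2*, *NQM1*, *ALD4*, *CIT3*, *PFK27*, *DSE1*, *HTB2*, *SAM1*, *MET6*, *ARG4* and *RAD54* lost their call in at least 1 of these fits. Without single libraries, the number of genes called ranged from 69 to 179 higher and from 93 to 203 lower for the effect in wild type at +16h. For the difference from +10h it ranged from 10 to 136 higher and 9 to 118 lower, and for the difference from *gal80Δ* from 31 to 49 higher and 28 to 48 lower. The difference in OD ranged from 0.733 to 0.858. A minimum log2 fold change of 1 left 46 genes higher and 61 lower at +16h, and 21 with a higher effect than at +10h, by construction. With only the groups compared, the difference from +10h gave 0 genes in each direction (edgeR, 895 of either sign at an unadjusted p below 0.05). DESeq2 called 79 higher and 80 lower for that difference and 74 lower for the difference from *gal80Δ*, and the cause was not tested.

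With the replicate letter as a block, 138 genes were higher and 201 lower at +16h, 41 and 27 differed from +10h, and 41 and 46 differed from *gal80Δ*. The letters are not known to pair the cultures, and same-lettered libraries of both media correlated in their deviations by 0.00391 (A), -0.246 (B) and -0.102 (C), so that none correlated best with its own letter. The block ended the calls of *HXT13* (adjusted p = 0.0661) and *RGI2* (adjusted p = 0.05) for the difference from +10h. With 3 libraries in each group, calls near the threshold rest on single libraries, and genes under about 10 CPM on few counts.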
